A study of Homo sapiens with 18 samples.

Results

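MYC binding was examined at the promoters of 9 genes that carry cells from G1 into S phase: the D-type cyclin genes CCND1 and CCND2, their kinase genes CDK4 and CDK6, the E-type cyclin gene CCNE1 with its kinase gene CDK2, the phosphatase gene CDC25A, and the transcription factor genes E2F1 and E2F2. A promoter was the 2 kb on either side of a fixed hg19 transcription start site, and it was bound in a library when at least 1 deposited MYC peak overlapped it. A peak was found at 8 of the 9 promoters, in 15 merged regions out of the 43222 that the lists of all libraries formed on chromosomes 1 to 22 and X. The rule used gene and position, not a measured value.

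All libraries came from MCF10A, an immortalised and non-tumorigenic breast epithelial line, carrying the plasmids pBABE-hygro-MYC for ectopic MYC and pMN-IRES-GFP-PI3KH1047R for a mutant PI3K. Cells growing without synchronisation also carried a doxycycline-inducible pLKO-tetON-puro hairpin: one of a pair against G9a, called shG9a_1 and shG9a_4 here, or the scramble control shSCR. Doxycycline was given at 2 µg/mL for 72 h to all of them, the controls included. Each hairpin had 3 MYC immunoprecipitations with the homemade antibody N262, and the matching 9 input samples were not used here. G9a is a methyltransferase of histone H3 lysine residues, and the comparison asks how MYC binding differs when it is targeted. Every group thus held MYC supplied from a plasmid, and the lists report neither the level of G9a nor gene expression, so the knockdown and the identity of the cells were not checked here.

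In G1, D-type cyclins bind and activate CDK4 and CDK6, which phosphorylate the retinoblastoma protein and so release E2F transcription factors. E2F proteins in turn switch on CCNE1, CDC25A and their own genes, and cyclin E with CDK2 completes the phosphorylation, while the phosphatase CDC25A removes inhibitory phosphates from CDK2. MYC is a transcription factor that binds E-box DNA together with MAX, and several of these genes are textbook MYC targets, CCND2 and CDK4 among them.

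Promoter sequences were read from RefSeq on GRCh38.p14, where 6 of the 9 genes had an entry and CDK6 had 2 start sites, 2614 bp apart, which made 7 promoters of 250 bases before and 50 after a start. The canonical E-box CACGTG, searched on both strands of a sequence that is its own reverse complement, was in 2 of the 7. CDK4 had 3 copies, beginning 216, 196 and 101 bases before the start, and the upstream CDK6 start had 1 copy, 30 bases after the start. Of all 35116 RefSeq promoters of this length 7.26% held a CACGTG and 33, or 0.0940%, held 3 or more. The E2F-type motif TTTNGCG, searched on both strands, was in 3 of the 7 promoters, with 2 copies in CDC25A, 2 in E2F1 and 3 in E2F2, against 5.14% of all promoters with 1 or more. Only 8 promoters of the 35116, or 0.0228%, held 3 or more copies. The 250 bases before the start are shown for CDK4, whose peak was the strongest of the 9 genes, and for E2F1 and E2F2, whose peaks were the weakest. They are on the minus strand, at chr12:57752311-57752560 for CDK4, chr20:33686386-33686635 for E2F1 and chr1:23531234-23531483 for E2F2 on GRCh38. Capitals mark CACGTG in CDK4 and TTTNGCG on either strand in E2F1 and E2F2, and in E2F2 the last 2 copies overlap in 1 run.
CDK4: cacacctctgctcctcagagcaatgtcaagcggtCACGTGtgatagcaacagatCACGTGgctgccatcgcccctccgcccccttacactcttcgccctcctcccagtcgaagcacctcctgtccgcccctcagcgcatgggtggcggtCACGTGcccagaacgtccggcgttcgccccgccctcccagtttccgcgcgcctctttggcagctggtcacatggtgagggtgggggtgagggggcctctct
E2F1: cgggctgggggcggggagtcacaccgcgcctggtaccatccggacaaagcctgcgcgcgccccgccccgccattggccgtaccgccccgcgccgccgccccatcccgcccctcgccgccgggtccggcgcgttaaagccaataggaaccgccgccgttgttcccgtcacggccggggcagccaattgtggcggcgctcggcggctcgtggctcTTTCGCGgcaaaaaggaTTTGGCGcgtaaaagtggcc
E2F2: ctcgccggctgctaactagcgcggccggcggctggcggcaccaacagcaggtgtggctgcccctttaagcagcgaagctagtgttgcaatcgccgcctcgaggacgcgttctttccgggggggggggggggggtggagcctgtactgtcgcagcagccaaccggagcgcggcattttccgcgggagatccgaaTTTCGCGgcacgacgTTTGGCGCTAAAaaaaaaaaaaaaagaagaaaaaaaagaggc
A match of letters is a description and does not show a bound site, and the offset between these starts and the hg19 sites used for the peaks was not determined.

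In shSCR cells MYC was called at 8 of the 9 promoters in all 3 libraries, and in shG9a cells at fewer. The shG9a_1 libraries called 0, 7 and 6 promoters and the shG9a_4 libraries 5, 5 and 5, against 8, 8 and 8 in shSCR. The mean was 4.67 ± 2.42 promoters in shG9a (SD, n = 6) and 8 ± 0 in shSCR (SD, n = 3), and 5.6 ± 0.894 in shG9a without shG9a_1 replicate 1 (SD, n = 5). That library listed only 113 peaks in all, none at these genes. The other shG9a lists held 11168 to 17454 peaks and the shSCR lists 20118 to 34738. Being called in all 3 shSCR libraries was the case for 32.9% of all merged regions, or 14209. That share is over single regions with a peak in at least 1 list, not over promoter windows. It is therefore no like background for 8 of 9 promoters, and the share of other promoters was not counted. No test was run on a count over chosen genes.

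**Figure D1:**
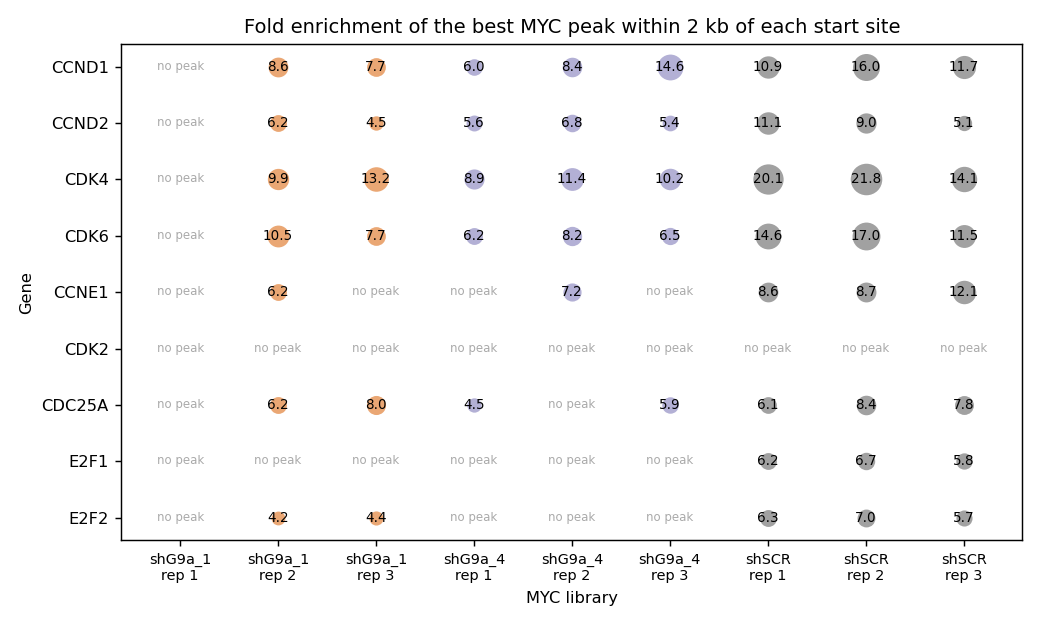
Fold enrichment deposited by the authors for the best MYC peak, by q-value, within 2 kb of each start site (rows) in each library (columns). Circle area is proportional to the fold printed on it. CDK4 has the highest fold in each shSCR library, CDK2 has no peak anywhere, and E2F1 has none in the shG9a libraries.

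The number of promoters called moved with the length of the lists. When each list was limited to its 11168 strongest peaks and shG9a_1 replicate 1 was left out, the shG9a libraries called 7, 4, 5, 5 and 5 promoters and the shSCR libraries 5, 5 and 5. The mean was then 5.2 in shG9a (n = 5) and 5 in shSCR (n = 3). These were less apart than the shG9a libraries were among themselves, and the direction of the difference turned. E2F1 was then called in no library, and E2F2 in shG9a_1 replicate 2 only.

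**Figure D2:**
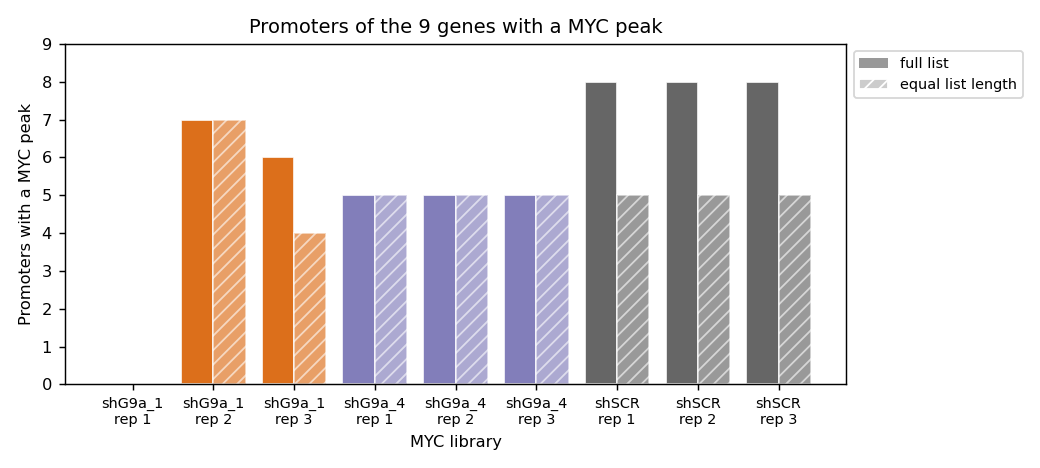
Number of the 9 promoters with a MYC peak in each library, from the full lists (solid bars) and from lists limited to the same number of strongest peaks (hatched bars, not drawn for shG9a_1 replicate 1, which has a full-list count of 0). The full lists give 5 to 7 promoters in 5 of the shG9a lists and 8 in each shSCR library, and the limited lists give 4 to 7 and 5.

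Levels were compared as pileup over background, the number of overlapping fragments at a peak's summit divided by the lowest common background of its library. Both were recovered from the deposited fold and p-value of each peak. A gene's strongest region was the one with the highest mean within-list percentile by q-value in shSCR. It was thus chosen from the shSCR lists only, which can favour high shSCR values where a gene has several regions. In shSCR the order from high to low was CDK4 at 73.6 ± 13.5, CDK6 at 61.4 ± 5.66, CCND1 at 42.8 ± 7.30, CCNE1 at 31.0 ± 7.53, CDC25A at 30.8 ± 8.90, CCND2 at 28.5 ± 9.83, E2F2 at 22.9 ± 3.35 and E2F1 at 18.6 ± 0.901 (SD, n = 3 libraries each). The shSCR values of CDK4 and CDK6 overlapped, and so did those of CCND1, CCNE1, CDC25A, CCND2 and E2F2 from one neighbour to the next. CDK6 and CCND1 did not overlap, nor did E2F2 and E2F1, whose values were 20.1 to 26.6 and 17.9 to 19.6.

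CCND1, the gene of cyclin D1, carried MYC in 3 separate regions, the strongest of them at chr11:69455159-69456329 on hg19, with its summit a median of -439 bp from the start, where negative positions are upstream. This region was called in 2 of 3 shG9a_1, 3 of 3 shG9a_4 and 3 of 3 shSCR libraries. Pileup over background was 29.7 and 33.2 in shG9a_1 replicates 2 and 3, 16.3, 25.2 and 28.1 in shG9a_4, and 38.0, 51.2 and 39.3 in shSCR. Every shSCR value lay above every shG9a value. Differences were fitted without shG9a_1 replicate 1, so over 2 shG9a_1, 3 shG9a_4 and 3 shSCR libraries. As measured the difference missed the threshold over both hairpins, at a log2 difference of -0.67 (SE 0.326, adjusted p = 0.0513), by limma over the 5245 regions called in 8 libraries with Benjamini-Hochberg adjustment. It passed for shG9a_4 alone, at -0.91 (SE 0.362, adjusted p = 0.0180, limma). Without shG9a_4 replicate 2 or 3 CCND1 passed over both hairpins too, at -0.71 and -0.75. The shG9a_4 call was lost without shG9a_4 replicate 1 (-0.67, adjusted p = 0.129, limma), without shSCR replicate 2 (-0.77, adjusted p = 0.0971, limma) and with the deposited fold (-0.51, adjusted p = 0.248, limma). A downstream region at chr11:69456651-69457758 gave -0.64 over both hairpins (adjusted p = 0.0631) and -0.81 for shG9a_4 (adjusted p = 0.0314, limma). This shG9a_4 call was lost with the deposited fold (-0.24, adjusted p = 0.577), with a looser filter on regions (adjusted p = 0.0585) and without shG9a_4 replicate 1 or 3 or shSCR replicate 1 or 2 (limma adjusted p = 0.0833 to 0.214). Within its list the strongest CCND1 region stood at percentile 75.4 and 69.6 in shG9a_1 replicates 2 and 3, 45.8, 64.0 and 91.1 in shG9a_4, and 82.4, 90.3 and 82.1 in shSCR, where 100 is the peak of lowest q-value.

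CCND2, the gene of cyclin D2, had its region at chr12:4381400-4381938, with summits at -1370 to -1064 bp from the start, farther upstream than the strongest region of any other gene here. It was called in 5 of 6 shG9a libraries and in all 3 shSCR libraries. For CCND2 pileup over background was 24.3 and 18.7 in shG9a_1 replicates 2 and 3, 11.3, 18.9 and 9.70 in shG9a_4, and 33.5, 34.8 and 17.2 in shSCR. The groups overlapped, because shSCR replicate 3 lay below 3 of the 5 shG9a values. In fragments these were 9 or 10 in each of the 5 shG9a libraries and 15, 17 and 7 in shSCR. CCND2 fell by 0.72 on the log2 scale over both hairpins (adjusted p = 0.0385, limma) and by 1.09 for shG9a_4 (adjusted p = 0.00663). For shG9a_4 the CCND2 call was lost without shG9a_4 replicate 3 (-0.89, adjusted p = 0.0553, limma) or shSCR replicate 2 (-0.91, adjusted p = 0.0608, limma). The call over both hairpins was lost without any one of 6 of the 8 libraries, with log2 differences of -1.05 to -0.54 over all such fits.

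CDK4, the kinase gene, had the strongest peak, at chr12:58145575-58146558, over the start itself. Its highest summits lay 34 to 141 bp downstream of the start in the 8 libraries that called it. The peak of lowest q-value was ranked 1806 of 11462 and 1207 of 13068 in shG9a_1 replicates 2 and 3. It was ranked 2081 of 11168, 2266 of 17454 and 2694 of 12922 in shG9a_4, and 1074 of 29827, 1267 of 34738 and 2035 of 20118 in shSCR. Ranks describe each list and are not compared across lists of different length. The highest CDK4 pileup over background was 40.5 and 49.8 in shG9a_1 replicates 2 and 3, 26.4, 50.4 and 21.3 in shG9a_4, and 71.4, 88.1 and 61.3 in shSCR. In shG9a_4 replicate 3 the ranked peak was another one of this region, with 19.4 and its summit 469 bp downstream. All 5 shG9a values lay below the lowest shSCR value. CDK4 fell by 0.98 on the log2 scale over both hairpins (SE 0.326, adjusted p = 0.00956, limma) and by 1.26 for shG9a_4 (adjusted p = 0.00302), and gave -0.70 for shG9a_1 (adjusted p = 0.184). By fixed rule, the 3 regions whose within-list percentiles followed CDK4 most closely over the 8 libraries, out of 5244, were chr2:113402728-113404181, chr14:102780405-102780890 and chr10:75936040-75937117, with largest differences of 3.28, 4.70 and 4.86 percentile points.

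CDK6, the other kinase partner of the D cyclins, held its strongest region at chr7:92462221-92462792, on the transcribed side of the start. Its summits were 737 to 800 bp downstream, a spread of 63 bp over 8 libraries and the narrowest of the 8 bound genes. The CDK6 pileup over background was 45.9 and 33.2 in shG9a_1 replicates 2 and 3, 16.3, 35.7 and 24.2 in shG9a_4, and 60.3, 67.6 and 56.4 in shSCR. No shG9a value reached the shSCR range. CDK6 fell by 1.00 on the log2 scale over both hairpins (adjusted p = 0.00865, limma) and by 1.34 for shG9a_4 (adjusted p = 0.00207), with -0.65 for shG9a_1 (adjusted p = 0.207). A second CDK6 region, at chr7:92463104-92463451 over the start itself, was called in 1 of 6 shG9a libraries and 3 of 3 shSCR libraries (two-sided Fisher's exact test p = 0.0476, adjusted p = 0.446 over all merged regions). The 6 include shG9a_1 replicate 1, which listed few peaks anywhere. Another CDK6 region, upstream, was called in 1 of 6 shG9a and 2 of 3 shSCR libraries. Peaks at CDK6 covered 387 ± 210 bp in the 5 shG9a libraries that entered the fit (SD, n = 5) and 1067 ± 659 bp in shSCR (SD, n = 3). The groups overlapped, with 749 bp in shG9a_4 replicate 2 and 514 bp in shSCR replicate 3.

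**Figure D3:**
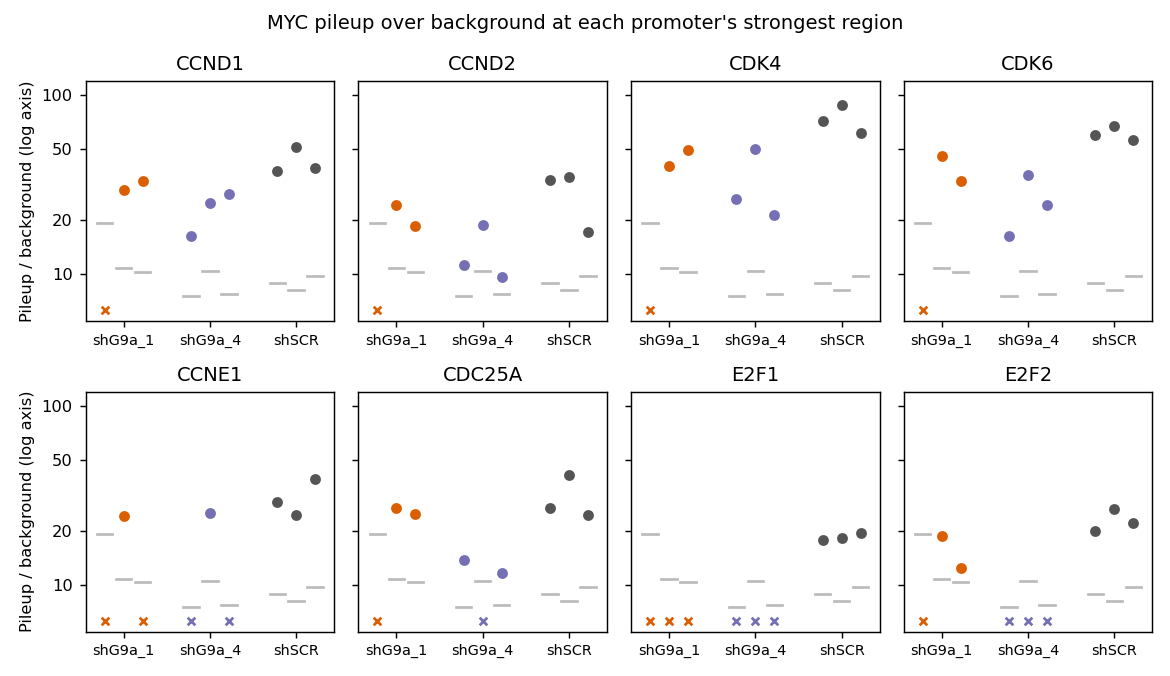
Pileup over background (log axis) at the strongest region of each of the 8 bound promoters, 1 point per library in replicate order within a hairpin; a cross at the bottom marks a library without a peak there. The strongest region was chosen from the shSCR lists only. Grey bars give the lowest ratio listed in each library where its background was lowest. CDK4, CDK6 and CCND1 have all shSCR points above all shG9a points, while E2F1 has points in shSCR only. The library medians over all fitted regions, not drawn, are separated in the same way.

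These falls were read against all regions fitted. Over both hairpins 4027 of the 5245 regions, or 76.8%, were lower in shG9a and none higher, with a median log2 difference of -0.85, so 3 of the 4 genes passing is near that background. The log2 difference was negative in 99.7% of the regions. CCND1, CDK4 and CDK6 had every shSCR value above every shG9a value, but the share of all regions separated in this way was not counted. The library medians over all fitted regions were separated in the same way, at 22.3 to 42.0 in shG9a and 51.5 to 63.5 in shSCR. The separation is therefore not shown to be particular to these genes. Without shSCR replicate 2 only 400 regions passed, and CDK4 and CDK6 no longer did, at -0.84 and -0.93. With the deposited fold in place of pileup over background 1512 regions passed, CDK4 and CDK6 with them, and CCND2 at -0.52 did not. CDK4 and CDK6 lay at percentile 28.6 and 26.0 of the differences over all regions, where a low percentile is a larger fall, and CCND2 and CCND1 at 70.1 and 77.2. For shG9a_1 alone 0.419% of regions passed and none of the 4 genes did. Without shG9a_4 replicate 2, which lowers the shared estimate of the spread, 2898 regions passed for shG9a_1, with CDK4 at -0.70 and CDK6 at -0.65. For shG9a_4 alone 86% passed and all 4 genes did. With the deposited fold 610 regions passed for shG9a_4, and of the 4 genes CDK6 did (-1.03, adjusted p = 0.0341, limma), while CDK4 (-0.86, adjusted p = 0.0663, limma), CCND1 and CCND2 (-0.44, adjusted p = 0.309, limma) did not. Between the hairpins themselves 0 regions, or 0%, passed (265 at an unadjusted p under 0.05), so no gene here was shown to differ between shG9a_1 and shG9a_4. Leaving out shG9a_4 replicate 2 changed that to 1935 regions, with CCND2, CDK4 and CDK6 higher in shG9a_1 than in shG9a_4 by 1.02, 0.92 and 0.97 on the log2 scale (adjusted p = 0.0179, 0.0227 and 0.0190, limma).

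Once each library was centred on its own median over the fitted regions, none of the genes passed. The centred log2 differences over both hairpins were 0.17 for CCND1 (95% interval -0.26 to 0.61), 0.12 for CCND2 (-0.30 to 0.55), -0.13 for CDK4 (-0.52 to 0.25) and -0.15 for CDK6 (-0.55 to 0.25), with limma adjusted p from 0.822 to 0.908 over these genes and the downstream CCND1 region. Of all regions 0.0953%, or 5, passed when centred. In the same terms CDK4 stood at 0.957 to 1.41 times its library's median region in the 5 shG9a libraries and at 1.19 to 1.39 times in shSCR. CDK6 stood at 0.982 ± 0.226 times in shG9a (SD, n = 5) and 1.09 ± 0.0302 times in shSCR (SD, n = 3). CCND1 stood at 0.874 ± 0.252 times in shG9a and 0.759 ± 0.0491 times in shSCR. The library medians used were 35.1 and 35.2 in shG9a_1, 22.6, 42.0 and 22.3 in shG9a_4, and 53.6, 63.5 and 51.5 in shSCR. The libraries with the 2 lowest medians, shG9a_4 replicates 1 and 3, also had the highest recovered depth of the 8, at 1.90 and 2.65 times the shSCR mean, and the part of depth in the difference was not tested.

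**Figure D4:**
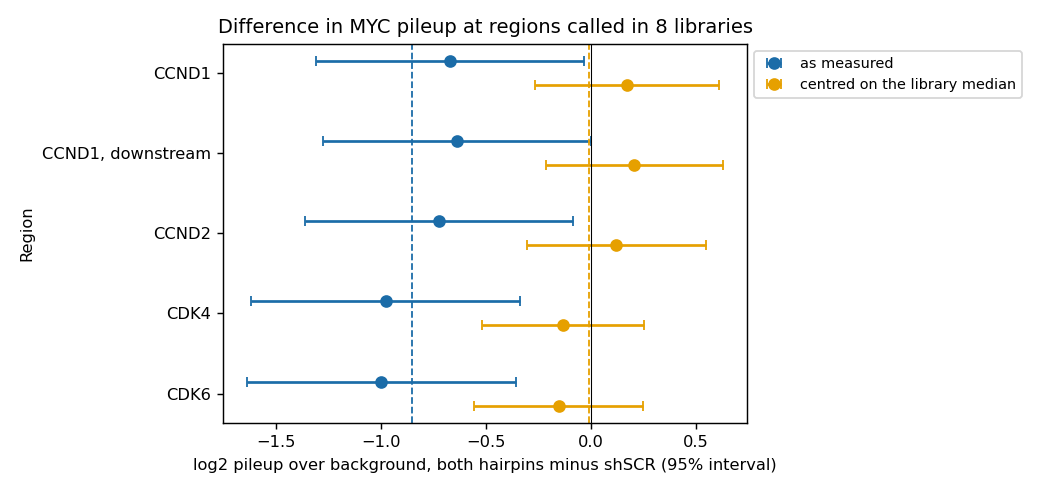
Log2 difference in pileup over background, both shG9a hairpins minus shSCR, with 95% intervals from limma, for the 5 regions of these genes called in 8 libraries. Blue values are as measured and orange values are centred on each library's median, and dashed lines mark the median of all 5245 regions. The blue points lie around their dashed line at -0.85, and every orange interval spans 0.

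CCNE1, the gene of cyclin E1, was called in 1 of 3 shG9a_1, 1 of 3 shG9a_4 and 3 of 3 shSCR libraries, at chr19:30302066-30302614, with summits at -570 to -443 bp from the start. Pileup over background was 24.3 in shG9a_1 replicate 2 and 25.2 in shG9a_4 replicate 2, and 29.0, 24.6 and 39.3 in shSCR. The shG9a_4 value lay inside the shSCR range and the shG9a_1 value just below it. Relative to the library's median region they were 0.600 and 0.692 times, both inside the shSCR range of 0.387 to 0.762. The deposited fold was 6.20 and 7.23 in those 2 libraries and 8.55, 8.67 and 12.1 in shSCR. A smaller region over the start was called in 0 of 6 shG9a and 2 of 3 shSCR libraries.

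CDK2, the kinase of cyclin E, was the 1 gene without a MYC peak in its window in any library. The nearest peak was 26315 to 75351 bp from its start in 8 libraries and 1805276 bp away in shG9a_1 replicate 1. Widening the window to 5 kb on each side found none either.

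CDC25A, the phosphatase gene, had a merged region of 1815 bp at chr3:48228389-48230203 that was called in 2 of 3 shG9a_1, 2 of 3 shG9a_4 and 3 of 3 shSCR libraries. The region joins separate peaks, the widest of them 860 bp in shSCR replicate 3. The highest summits of the region lay 613 to 720 bp downstream of the start. Pileup over background was 27.0 and 24.9 in shG9a_1 replicates 2 and 3, 13.8 and 11.6 in shG9a_4 replicates 1 and 3, and 26.8, 41.0 and 24.5 in shSCR. Both shG9a_1 values lay inside the shSCR range, and both shG9a_4 values lay below it. Relative to the library's median region the order was another one. CDC25A then stood at 0.769 and 0.706 times in shG9a_1, above the shSCR range of 0.476 to 0.645. The shG9a_4 values of 0.611 and 0.522 times lay inside that range. CDC25A peaks covered 240 ± 176 bp in the 5 shG9a libraries (SD, n = 5) and 1103 ± 229 bp in shSCR (SD, n = 3), with no overlap between the groups. The shG9a values include 0 bp for shG9a_4 replicate 2, which had no peak there. The shSCR lists were longer, and the share of other promoters without such an overlap was not counted.

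E2F1 was the only gene of the 9 called in every shSCR library and in no shG9a library. Its region lay at chr20:32273862-32274603, across the start. In shSCR it had 8, 9 and 8 fragments, a pileup over background of 17.9, 18.4 and 19.6, a deposited fold of 6.22, 6.67 and 5.83, and a within-list percentile of 40.2, 44.5 and 29.6. The 3 pileup ratios were close together, and their mean was the lowest of the 8 bound genes. A call pattern of 0 of 6 against 3 of 3 has two-sided Fisher's exact p = 0.0119, and adjusted over all merged regions p = 0.382. The 6 include shG9a_1 replicate 1, which listed 113 peaks in all. Of all regions 0% passed that test after adjustment, and 3045 had an unadjusted p under 0.05. No lower p is possible with 6 against 3 libraries, and too few of all merged regions had it for any to pass after adjustment. Among regions called in all 3 shSCR libraries 9.49% were called in no shG9a library, and 23.4% of those in the same strength decile as E2F1, where strength is the mean shSCR percentile.

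E2F2 was called in 2 of 3 shG9a_1, 0 of 3 shG9a_4 and 3 of 3 shSCR libraries, at chr1:23857754-23858106, with summits at -278 to -103 bp from the start. Pileup over background was 18.9 and 12.4 in shG9a_1 replicates 2 and 3, and 20.1, 26.6 and 22.1 in shSCR. Both shG9a_1 values lay below the shSCR range. They were 7 and 6 fragments and stood at percentile 2.49 and 4.16 of their lists, among the last peaks listed. Relative to the library's median region E2F2 stood at 0.538 and 0.353 times in shG9a_1 replicates 2 and 3. The shSCR range was 0.375 to 0.429 times, so the former lay above it and the latter below. A missing call does not show that MYC was absent. Where background was lowest, the least ratio listed was 7.54 to 10.8 in the 5 shG9a libraries fitted, 19.4 in shG9a_1 replicate 1, and 8.19 to 9.81 in shSCR.

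**Figure D5:**
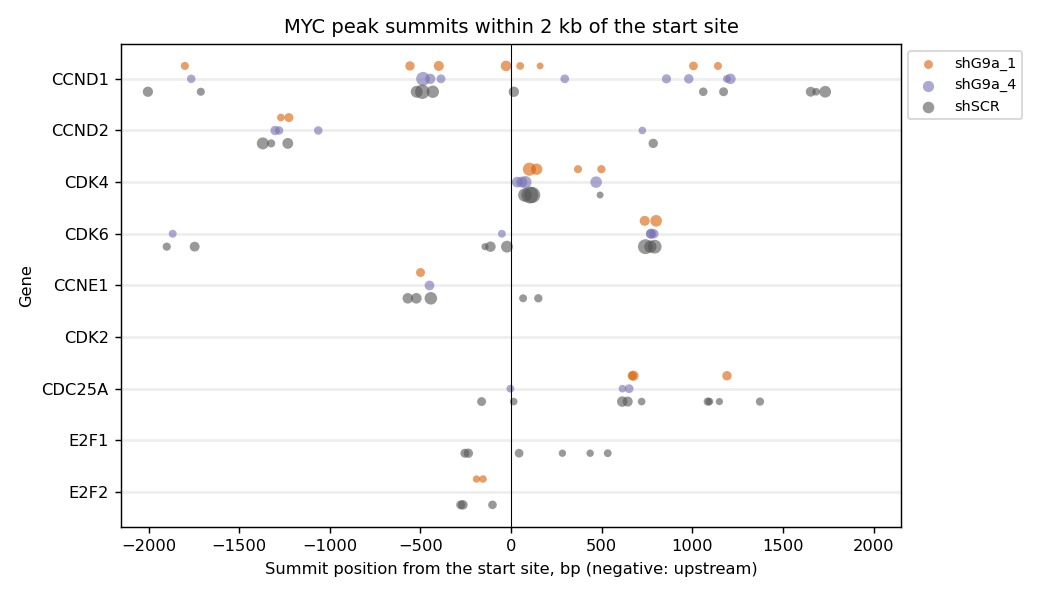
Positions of all MYC peak summits within 2 kb of the start site of each gene, with negative values upstream; point area is proportional to the deposited fold. Within each gene the rows run shG9a_1, shG9a_4 and shSCR. In the strongest region of each gene, CDK4 summits lie 34 to 141 bp downstream, CDK6 summits 737 to 800 bp downstream and CCND2 summits at -1370 to -1064 bp, in all 3 hairpin groups. Other points of these genes are further peaks of the window.

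The 8 strongest regions fell into strength decile 10 for CDK4, 9 for CDK6, 8 for CCND1, 6 for CCNE1, 4 for CCND2 and CDC25A, and 2 for E2F1 and E2F2. At least 5 of 6 shG9a libraries called CDK4, CDK6, CCND1 and CCND2, which was so for 36.9% of all regions called in all 3 shSCR libraries. In their own deciles that share was 99.2% for CDK4, 90.8% for CDK6 and 67.8% for CCND1, and 9.99% for CCND2. The decile of CCND2 depended on 1 library. Its shSCR percentiles were 81.6, 72.0 and 15.9, with a mean of 56.5, and of 76.8 without shSCR replicate 3. CCNE1 was called in 2 shG9a libraries, where 28.2% of regions of its decile were called in at least 5, and CDC25A in 4. Where a call was made, the summits of a gene's strongest region spread over 63 bp (CDK6) to 306 bp (CCND2) in 7 of the 8 bound genes, and over 493 bp in CCND1.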

How the data were processed

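MYC ChIP-seq peak lists of 9 libraries were used, 3 per hairpin. The submitters' processing notes list MACS2 2.1.0, Picard 2.7.1, STAR 2.5.2a and SAMtools 1.3, with the builds hg19 and GRCh37, and caller settings are not stated in these sources. The deposited lists hold, per peak, the authors' score, fold enrichment (a ratio), −log10 p-value and −log10 q-value at the summit, 1 list per library and without pooling. Whole-number pileup and background were recovered from fold and p in 100% of peaks (within 0.001 on the −log10 p scale), also in 100% of 3000 simulated peaks. Depth is not listed; recovered relative depth was 0.840 to 2.65 times the shSCR mean in 8 libraries. The 2.36 of shG9a_1 replicate 1 rests on a shortest peak of 51 bp. Of all peaks, 192 on other sequences were left out and 150870 used.

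Peaks overlapping by at least 1 bp were merged, and the peak of highest pileup gave a region's value. log2 pileup over the lowest background shared by at least 1% of a library's peaks, a scale computed here and not by the authors, was fitted with limma 3.58.1 (R 4.3.3) over regions called in 8 libraries, without a replicate block, with Benjamini-Hochberg adjustment and a threshold of 0.05. In simulated data 76% of regions with a planted log2 difference of -1 passed over both hairpins, and 0.0991% of unchanged ones. The simulated counts held Poisson noise only, with no further spread between libraries and no shift common to all regions. These shares are a check of the code and do not give the power or false calls of the real fit. The p-values set each difference against the spread between libraries of the same hairpin, moderated by limma over all regions. Spread between the shG9a hairpins does not enter them.

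The genes, the tests and the rule to name all 9 genes were chosen with earlier results of these data known. Fisher's exact test of calls and the means without shG9a_1 replicate 1 were added after values were seen. Other genes of the pathway were not analysed here, since no hg19 annotation was used. Strands of CCND1, CCND2 and CDK2 were taken as plus from common knowledge, and the others from RefSeq.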

Additional observations from a re-analysis of the deposited data

Results flagged for a closer look

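The count of bound promoters in shG9a_1 replicate 1 stood apart from the other shG9a libraries. It was 0 of 9, against 5 to 7 in the other 5, and its gap to the nearest library was 0.714 of the whole range, more than Dixon's 95% critical value for 6 samples. Of 16 groups looked at, 1 was marked in this way, where chance marks about 1 in 20. The same library listed 113 peaks in all. The cause was not tested.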

How the results depend on the processing

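With lists of equal length the difference in promoters called per library, shG9a minus shSCR, became 0.2 over both hairpins, 0.5 for shG9a_1 and 0 for shG9a_4. For shG9a_4 it was -3.33 with a 1 kb window, with −log10 q of at least 5 and with a fold of at least 5. Leaving out 1 library gave -3.8 to -2.4 with the hairpins together, and for shG9a_1 alone -5 to -1.5, while shG9a_4 stayed at -3. Centring each library on its median gave log2 differences over both hairpins of 0.17 for CCND1, 0.21 for its downstream region, 0.12 for CCND2, -0.13 for CDK4 and -0.15 for CDK6. For shG9a_1 it gave 0.24, 0.21 and 0.32 for the first 3 and 0.0193 for CDK6, and for shG9a_4 0.11 and 0.21 for the CCND1 regions. Regions that passed then numbered 5 over both hairpins, 0 for shG9a_1 and 7 for shG9a_4. With the deposited fold they numbered 1512, 595 and 610, CCND2 gave -0.52 over both hairpins, and shG9a_1 against shG9a_4 turned to -0.14, -0.27 and -0.15 for CCND1, its downstream region and CCND2. With the looser filter CCND2 gave -0.72, no longer passing, with 0 regions passing for shG9a_1 and 6837 for shG9a_4. The peak of lowest q gave 11 regions for shG9a_1. The 9 libraries together called 109 regions in common, none at these genes, and 0 passed in any contrast. Same-numbered samples shared only a number (correlation of deviations -0.0209 to 0.155), and the replicate block gave -3.33 promoters over both hairpins, as without it, CCND1 -0.75 and its downstream region -0.70, both passing, and 1508 regions for shG9a_1.

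Leaving out 1 library gave over both hairpins -0.75 to -0.53 for CCND1, -0.83 to -0.45 for its downstream region, -1.05 to -0.54 for CCND2, -1.16 to -0.84 for CDK4 and -1.14 to -0.85 for CDK6. Centred, it gave 0.0332 to 0.28, 0.0166 to 0.47, -0.15 to 0.30, -0.20 to -0.0645 and -0.28 to 0.0368 for the same regions. Regions that passed were 400 to 5204 over both hairpins. For shG9a_1 alone they were 0 to 2898, for shG9a_4 alone 2220 to 5309, 0 to 1935 between the hairpins and, centred, 1 to 20. The downstream CCND1 region ran from -0.0204 to 0.74 between the hairpins. Peak lists limit every value to what the caller listed, and MYC below that limit was not measured.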
